A study of Mus musculus with 6 samples.

Results

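Carbonic anhydrases and the carriers that move lactate, protons and bicarbonate across the cell membrane were examined in PDPN+PDGFRα+ stromal cells of MO5 tumors. The set held 9 genes, picked by name from the 53801 genes of the count table: the carbonic anhydrases Car2, Car3, Car4, Car9, Car12 and Car13, the monocarboxylate carriers Slc16a1 and Slc16a3, and the bicarbonate carrier Slc4a7. MO5 tumors grow from B16 melanoma cells that express ovalbumin (B16-OVA), implanted under the skin of C57Bl/6 mice aged 8 to 12 weeks. The 3 DTR libraries came from ADAM12-DTR mice, which carry a transgene that places the diphtheria toxin receptor under the Adam12 promoter, and the 3 Ctrl libraries came from non-transgenic littermates (DTR-). Both groups received diphtheria toxin (DT), at 100 ng per day in the study's methods. For the tumors it compared for T cell infiltration, the study describes DT from day 10 after implantation. The sample titles do not give the schedule. Toxin exposure was common to all 6 libraries, and the transgene was the difference between the groups. The labels do not say whether a library is 1 mouse or a pool, so p-values measure the spread between these libraries. The study used this transgene and toxin to deplete ADAM12+ cells. The question was whether genes that set intracellular and extracellular pH differed between the sorted cells of the groups.

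Carbonic anhydrases catalyze the reversible hydration of carbon dioxide to bicarbonate and a proton. Some are cytosolic (Car2, Car3 and Car13), whereas others face the extracellular space, either through a transmembrane segment (Car9 and Car12) or a lipid anchor (Car4). Cells that rely on glycolysis export lactate together with a proton through the monocarboxylate carriers MCT1 (Slc16a1) and MCT4 (Slc16a3), and take up bicarbonate through sodium-coupled carriers such as NBCn1 (Slc4a7). Car9 and Slc16a3 are textbook targets of hypoxia-inducible factors, whose core binding word is ACGTG or GCGTG.

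Libraries held between 22339635 and 34271929 counts on genes. At these depths 3 counts, taken as the detection floor, correspond to between 0.0873 and 0.132 CPM (counts scaled to library size with TMM factors), which covers counting error only. Adam12 itself was at 191 CPM ± 22.1 in Ctrl and 143 CPM ± 27.6 in DTR (mean ± SD over n = 3 libraries, as throughout), a log2 fold change of -0.42 with groups that did not overlap (edgeR adjusted p = 0.602). It was -0.27 without DTR replicate 3 and -0.65 with an offset for genomic span. How far ADAM12+ cells were lost from the sorted fraction was not tested. The gated markers Pdgfra and Pdpn had log2 fold changes of 0.29 and 0.37. Without DTR replicate 3 these were -0.03 and 0.07, and without Ctrl replicate 1 they were 0.83 and 0.63. All 9 fibroblast markers passed the filter on low counts, and their summed level ran from 5166 to 13622 CPM in Ctrl and from 5574 to 14115 CPM in DTR. All 12 pigment cell markers were also present, summing to 16874 to 21051 CPM across the 6 libraries, which exceeds the fibroblast sum in every library. The sorted fraction thus also contained pigment cell transcripts, and in such bulk libraries fewer cells of a type and less RNA per cell cannot be told apart. Which cells the carbonic anhydrase counts came from was not tested.

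Of the 9 genes, 7 passed the filter on low counts and were tested, while Car3 and Car4 were too low. Car9 and Slc16a3 had lower values in DTR and the other 5 tested genes had fitted values above Ctrl, of which Slc4a7 turned with an offset for genomic span and Car2 and Car12 with a library left out. The 7 had a median log2 fold change of 0.11 beside -0.003 over all 15133 genes tested, and that median was -0.06 without Ctrl replicate 3. By the quasi-likelihood test of edgeR with Benjamini-Hochberg adjustment at 0.05, 0 of the 7 were called, as were 0% of all genes tested. At an unadjusted p under 0.05, 1 of the 7 was lower in DTR (Car9), and 4.11% of all genes tested were. Car9 was also the 1 gene of the 7 whose DTR libraries all lay below all Ctrl libraries, a pattern met by 8.18% of all genes tested, and the reverse pattern, seen in 0 of the 7, was met by 6.32%. DESeq2's Wald test, run as an alternative, called Car9 and none of the other 8, against 0.131% of its 21343 genes. Because 1 gene carries these counts, the genes are described singly below, by role.

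Of Car9, Car12 and Car4, the enzymes of the set that face the extracellular space, Car9 (ENSMUSG00000028463, GRCm38 chromosome 4, 43506966 to 43513729) had the highest level. It was at 65.9, 63.9 and 38.2 CPM in Ctrl replicates 1, 2 and 3, from 1614, 1527 and 1086 counts. In DTR replicates 1, 2 and 3 it was at 24.7, 26.3 and 20.5 CPM, from 850, 817 and 464 counts. Ctrl replicate 3 was the lowest of its group yet stayed above the highest DTR library, so the groups did not overlap. The means were 56.0 CPM ± 15.5 and 23.8 CPM ± 3.02 (SD, n = 3 each), which is 2.35-fold more in Ctrl than in DTR. The log2 fold change was -1.23 (SE 0.214, 95% interval -1.72 to -0.74), with an unadjusted p of 0.000438 and an adjusted p of 0.602 in edgeR. DESeq2 gave Car9 an adjusted p of 0.000254 for a log2 fold change of -1.22, so the call on Car9 depended on the tool while the size of the difference did not. A two-sided exact permutation test gave p = 0.1, the smallest value that 3 libraries against 3 allow. Only 0.648% of the genes tested had a lower log2 fold change than Car9.

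**Figure D1:**
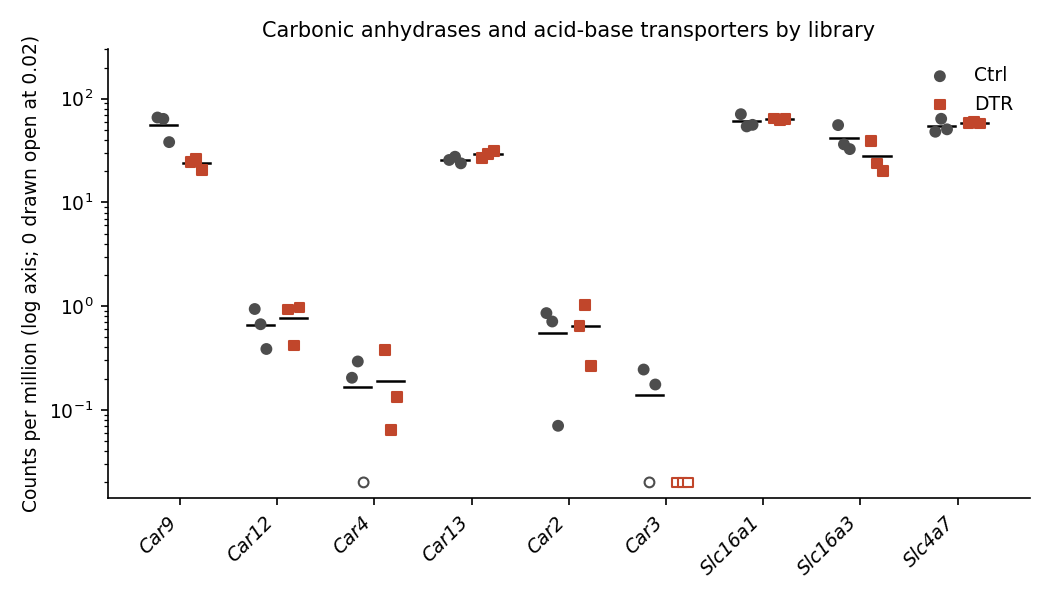
CPM of the 9 genes on a log axis, for the 3 Ctrl libraries (grey circles) and the 3 DTR libraries (red squares), with group means as bars and libraries listed at 0 drawn open at the foot of the axis. The DTR values of Car9, at 20.5 to 26.3 CPM, lie under its Ctrl values of 38.2 to 65.9 CPM, whereas the groups of the other 8 genes overlap.

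The summed levels of the marker lists of other cell types were set beside Car9. The summed level of 8 mural cell markers (pericytes and vascular smooth muscle) was 19.9 to 40.3 CPM in Ctrl and 16.2 to 16.7 CPM in DTR. The 5 of these markers that could be tested had fitted values below Ctrl, with a median log2 fold change of -0.73. None of the 5 passed the adjusted threshold in edgeR. Cspg4 alone, 1 of the 5, was lower with groups that did not overlap, beside 8.18% of all genes tested. Des, at -0.12, turned when a library was left out, and Higd1b was at 0 in every library. The summed level of 8 adipocyte markers was 4.40 to 8.41 CPM in Ctrl and 2.65 to 3.86 CPM in DTR, and Adipoq was at 0 in 2 DTR libraries. The 3 adipocyte markers tested had fitted values below Ctrl, with a median log2 fold change of -0.77. Of these 3, 0 passed the adjusted threshold and 1 (Fabp4) turned when a library was left out. Lipe, 1 of the 3, had groups that did not overlap, beside the same 8.18% of all genes. The libraries of both sums did not overlap between the groups, as for Car9, and the part of these cells in the Car9 difference was not tested. The gate removed CD45+ and CD31+ cells, and the sums of macrophage markers (101 to 173 CPM in Ctrl, 110 to 119 CPM in DTR) and endothelial markers (12.3 to 19.5 CPM in Ctrl, 14.2 to 80.2 CPM in DTR) overlapped. The median log2 fold changes of the remaining lists ran from -0.77 (neutrophil, 1 marker tested) through macrophage (-0.28), pigment cell (-0.08), keratinocyte (-0.03), erythroid (0.12), fibroblast (0.39) and skeletal muscle (0.46) to endothelial markers (0.61), also with 0 markers past the adjusted threshold. The macrophage and pigment cell lists likewise held 1 tested marker each that was lower in DTR without overlap.

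An antisense gene, Gm12454, shares 214 exonic bases with Car9 on the opposite strand. Its counts were 30, 18 and 20 in Ctrl and 22, 10 and 15 in DTR, far under those of Car9, and the study counted reads by strand. Of the 50-base words in Car9 exons, 4.76% also occur in another annotated gene, so reads from those stretches could be lost or given to another gene.

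The promoters show where the hypoxia-inducible factor core word occurs near these genes, which is the reason to print them. RefSeq promoters (GRCm38.p6, 250 bases before to 50 after the start) were found for 6 of the 9 genes, namely Car4, Car9, Car12, Slc16a1, Slc16a3 and Slc4a7. The word ACGTG, searched on both strands, was in 4 of the 6 (Car4, Car9, Slc16a1 and Slc16a3) and in 19.6% of 32851 promoters of that length. The 30-base stretches that follow run 5′ to 3′ on the plus strand, on which Car9, Slc16a1 and Slc16a3 are also transcribed, and capitals mark ACGTG or its reverse complement CACGT.
Car9, chr4:43506996-43507025: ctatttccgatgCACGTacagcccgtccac
Slc16a3, chr11:120949033-120949062: agcggtgACGTGcgcgggggACGTGccgcg
Slc16a1, chr3:104638452-104638481: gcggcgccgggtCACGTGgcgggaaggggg
In Car9 the word lies on the opposite strand, 18 bases before the RefSeq start at 43507026. Slc16a3 holds it 27 and 14 bases before its start. In Slc16a1 the run CACGTG reads the same on both strands, so it holds the word on each, overlapping, near 200 bases before the start, and another copy lies 20 bases past the start on the gene's strand. The related word GCGTG was found in 1 of the 6 promoters, that of Slc16a1, and in 32.4% of all promoters. A match describes the letters of the window only, and whether a factor binds these words was not tested.

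Car12, the other transmembrane enzyme of the set, was low but above the detection floor in every library. It had 23, 16 and 11 counts in Ctrl and 32, 13 and 22 counts in DTR, or 0.665 CPM ± 0.276 and 0.773 CPM ± 0.308. The groups overlapped, and the log2 fold change of 0.22 had an interval from -1.09 to 1.52 (edgeR adjusted p = 0.935), so that even a large difference in either direction could not be told from none. Car4, the lipid-anchored enzyme, had 5, 7 and 0 counts in Ctrl and 13, 2 and 3 counts in DTR, and was not tested.

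Car13, Car3 and Car2, the cytosolic enzymes, lie in that order within 259 kb of chromosome 3 (14641727 to 14900770). Car13 (ENSMUSG00000027555) was at 25.7, 27.6 and 23.8 CPM in Ctrl and 26.9, 29.5 and 31.4 CPM in DTR. The highest Ctrl library lay above the lowest DTR library, so the groups overlapped narrowly. The means were 25.7 CPM ± 1.88 and 29.3 CPM ± 2.26, with a log2 fold change of 0.19 (SE 0.114, interval -0.08 to 0.45, edgeR adjusted p = 0.678). The interval leaves out a decrease of the size seen for Car9.

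The neighbours of Car13 were scarce. Car2, the enzyme of red cells and many epithelia, had 21, 17 and 2 counts in Ctrl and 22, 32 and 6 counts in DTR, with a log2 fold change of 0.26 and an interval from -1.71 to 2.24 (edgeR adjusted p = 0.946). Ctrl replicate 3 was the lowest, and the direction turned when it was left out (-0.26) and when DTR replicate 2 was left out (-0.24). Car3, known from muscle and fat, had 6, 0 and 5 counts in Ctrl and was listed at 0 in all 3 DTR libraries, and no fold is given because the Ctrl counts are close to the floor. Erythroid marker sums overlapped, at 6.20 to 33.4 CPM in Ctrl and 9.70 to 37.8 CPM in DTR.

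Because Car13 and Car9 were measured in the same libraries, their ratio does not depend on the scaling between libraries. Per kilobase of exon, Car13 had 0.391, 0.433 and 0.626 counts for each Car9 count in Ctrl and 1.09, 1.12 and 1.54 in DTR. Car9 was thus the more abundant of the pair per length in all 3 Ctrl libraries and Car13 in all 3 DTR libraries. The mean ratios were 0.483 ± 0.125 and 1.25 ± 0.250 (SD, n = 3 each; two-sided exact permutation p = 0.1, the smallest possible). A ratio shows unequal change of the pair and not which of them changed.

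Slc16a3 and Slc16a1 are the monocarboxylate carriers of the set. Slc16a3 (MCT4, ENSMUSG00000025161, chromosome 11, 120948480 to 120960868) was at 55.7, 36.3 and 32.7 CPM in Ctrl and 39.4, 23.7 and 20.1 CPM in DTR. DTR replicate 1 lay above 2 of the Ctrl libraries, so the groups overlapped. The means were 41.6 CPM ± 12.4 and 27.7 CPM ± 10.3, with a log2 fold change of -0.58 (SE 0.286, interval -1.24 to 0.08, edgeR unadjusted p = 0.0771 and adjusted p = 0.646). Without Ctrl replicate 1 the log2 fold change was -0.31, and without DTR replicate 1 it was -0.91, so the size of the difference rested on single libraries.

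Slc16a1 (MCT1, ENSMUSG00000032902, chromosome 3, 104638668 to 104658462) was at 71.0, 54.1 and 56.0 CPM in Ctrl and at 64.6, 62.8 and 63.6 CPM in DTR. The 3 DTR libraries lay within the Ctrl range. The log2 fold change was 0.08 (SE 0.119, interval -0.20 to 0.35, edgeR adjusted p = 0.877), so a change beyond that interval was not seen, although a smaller one cannot be told from none. Per kilobase there were 1.53, 1.79 and 2.06 Slc16a1 counts for each Slc16a3 count in Ctrl and 1.97, 3.18 and 3.80 in DTR. The mean ratios were 1.79 ± 0.264 and 2.98 ± 0.930 (two-sided exact permutation p = 0.2), and DTR replicate 1 fell below Ctrl replicate 3.

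**Figure D2:**
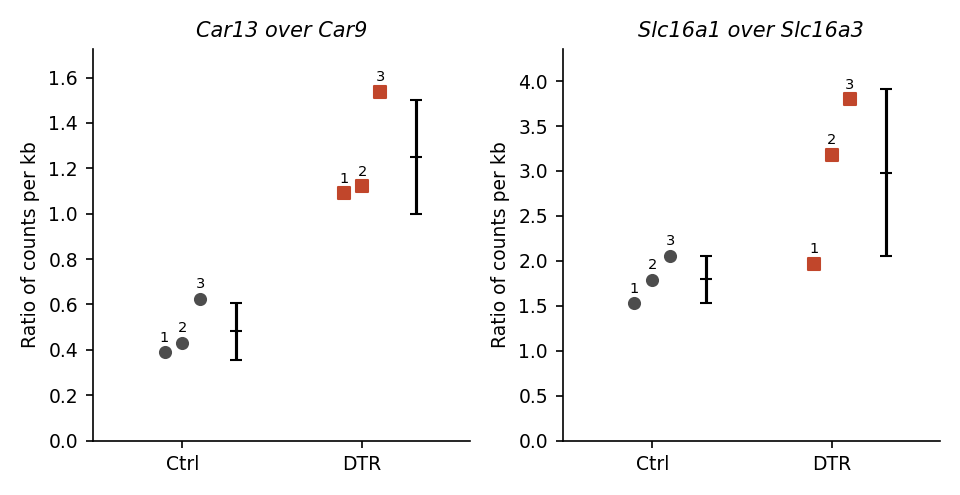
Ratio of counts per kilobase of exon in each library, for Car13 over Car9 (left) and Slc16a1 over Slc16a3 (right), with library numbers and with mean and SD bars beside the points. Car13 over Car9 is 0.391 to 0.626 in Ctrl and 1.09 to 1.54 in DTR, whereas the groups overlap for Slc16a1 over Slc16a3.

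Basigin (Bsg), the chaperone that brings MCT1 and MCT4 to the membrane, was among the most abundant transcripts, with 603 CPM ± 48.3 in Ctrl and 440 CPM ± 29.5 in DTR. Its groups did not overlap, and the log2 fold change was -0.45 (SE 0.097, edgeR unadjusted p = 0.0016 and adjusted p = 0.602). Of 14 further carriers and chaperones of this family, 8 were tested. In DTR 2 of them had lower and 6 had higher values, with a median log2 fold change of 0.28. Bsg in the lower direction and Slc16a10, an aromatic amino acid carrier, in the higher direction had an unadjusted p under 0.05, beside 7.92% of all genes tested in either direction. For Slc16a10 the log2 fold change was 0.97 (edgeR adjusted p = 0.604), and it was 0.49 without DTR replicate 3. Slc16a7 (MCT2), at 0.544 CPM ± 0.280 in Ctrl and 1.27 CPM ± 0.616 in DTR, had the highest log2 fold change of the list, 1.21 (edgeR adjusted p = 0.648). None of the 8 passed the adjusted threshold.

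Slc4a7 (ENSMUSG00000021733, chromosome 14, 14702279 to 14799940) was at 48.1, 64.1 and 50.7 CPM in Ctrl and 58.6, 59.3 and 57.8 CPM in DTR. The DTR libraries lay inside the Ctrl range, as they did for Slc16a1. The log2 fold change was 0.11 (SE 0.123, interval -0.17 to 0.39, edgeR adjusted p = 0.827), and with an offset for genomic span it was -0.02, so no direction is given. Among 9 other SLC4 carriers 6 were tested, and 4 had lower and 2 higher values in DTR, with a median log2 fold change of -0.09. Slc4a2, a chloride-bicarbonate exchanger, was at 155 CPM ± 6.18 and 129 CPM ± 11.5 with groups that did not overlap (log2 fold change -0.27, unadjusted p = 0.0177, edgeR adjusted p = 0.602). Slc4a4, a sodium-bicarbonate cotransporter, had 612, 378 and 293 counts in Ctrl and 1453, 382 and 1508 counts in DTR (log2 fold change 1.24, edgeR adjusted p = 0.630), and its value was 0.68 without DTR replicate 3, 1 of the 2 high DTR libraries.

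Levels of different genes were compared per kilobase of exon. In all 3 Ctrl libraries the order was Car9, Slc16a1, Car13, Slc16a3 and Slc4a7, whereas in all 3 DTR libraries Slc16a1 came first, Car13 next and Car9 after them. In Ctrl these genes were at 24.3 ± 6.72, 13.6 ± 2.09, 11.2 ± 0.819, 7.82 ± 2.33 and 3.57 ± 0.564 CPM per kilobase. Slc16a1 and Car13 were close neighbours, with Ctrl libraries of Slc16a1 from 12.2 upward and all those of Car13 just below, while the highest Ctrl library of Slc16a3, at 10.5, exceeded the lowest of Car13, at 10.4. Slc16a3 and Slc4a7 exchanged places in DTR replicate 3. In DTR Car9 was at 10.3 ± 1.31 CPM per kilobase, beside 14.4 ± 0.207 for Slc16a1 and 12.7 ± 0.982 for Car13. Over all libraries Car9 ranked 2156 among 21967 protein-coding genes by level per length, Slc16a1 2709, Car13 3175, Slc16a3 5358 and Slc4a7 7400. Car2, Car12, Car4 and Car3 ranked from 12254 to 14933, and their ranges overlapped.

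**Figure D3:**
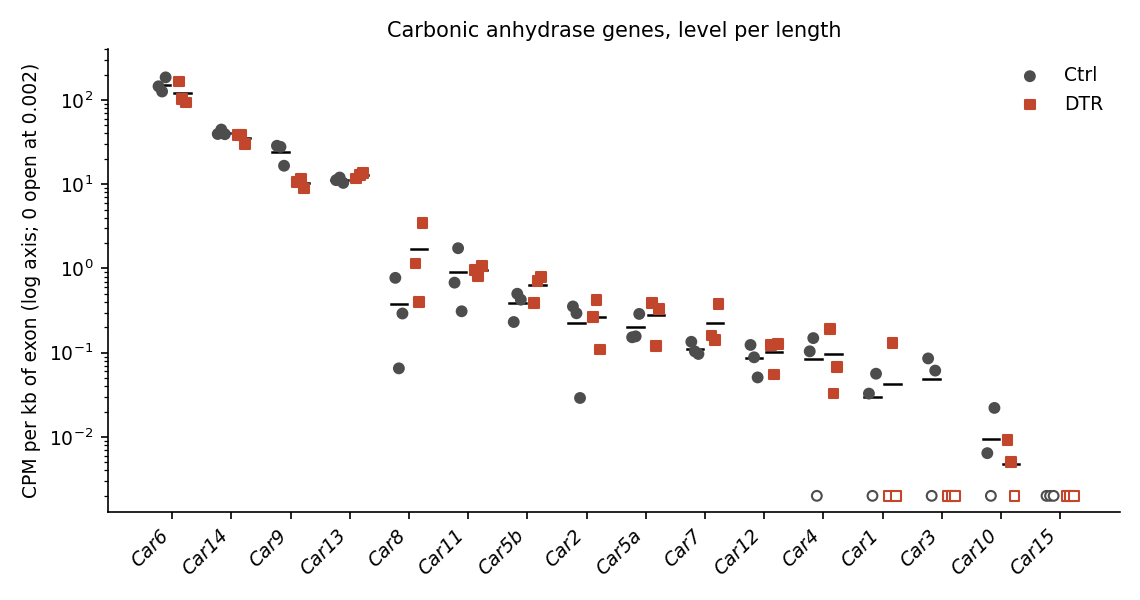
CPM per kilobase of exon on a log axis for the 16 carbonic anhydrase genes, ordered by mean level, with Ctrl as grey circles, DTR as red squares, group means as bars and libraries listed at 0 drawn open at the foot. Car6 and Car14 stand above Car9 and Car13. Among the 4 most abundant genes, Car9 has the groups farthest apart on this log axis (as a ratio), at means of 24.3 and 10.3 CPM per kilobase.

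Car9 was not the most abundant carbonic anhydrase of these libraries. Of the summed CPM per kilobase over 16 carbonic anhydrase genes, Car6, the secreted enzyme known from saliva, held 59.0 to 73.2% in Ctrl and 61.0 to 72.0% in DTR. Car14, a transmembrane enzyme, held 17.9% ± 2.73 and 19.8% ± 3.15. Car9 held 12.6, 13.0 and 6.54% in Ctrl and 4.68, 6.77 and 5.83% in DTR, so that as a share of the family Ctrl replicate 3 overlapped the DTR libraries. Car6 was at 276 CPM ± 55.0 in Ctrl and 219 CPM ± 70.8 in DTR, with a log2 fold change of -0.34 (edgeR adjusted p = 0.707) that ran from -0.62 without DTR replicate 1 to -0.17 without Ctrl replicate 3.

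Of the 10 other carbonic anhydrases 7 were tested. Car6 and Car14 had lower values in DTR and the other 5, all at low levels, had higher ones, so the median log2 fold change was 0.47. Of these 5, Car11 (0.07) ran from -0.34 to 0.95 when 1 library was left out. No gene of the 7 reached an unadjusted p under 0.05. The groups of Car14 (lower in DTR) and Car7 (higher in DTR) did not overlap, which is 2 of the 7 beside 14.5% of all genes tested in either direction. Car8, a family member that lacks catalytic activity, had the highest log2 fold change, 2.15 (edgeR adjusted p = 0.630), with 73, 6 and 32 counts in Ctrl and 152, 48 and 305 counts in DTR. Its groups overlapped and each spread widely, and the value was 1.04 without DTR replicate 3 and 3.19 without Ctrl replicate 1. Car15 was listed at 0 in every library.

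**Figure D4:**
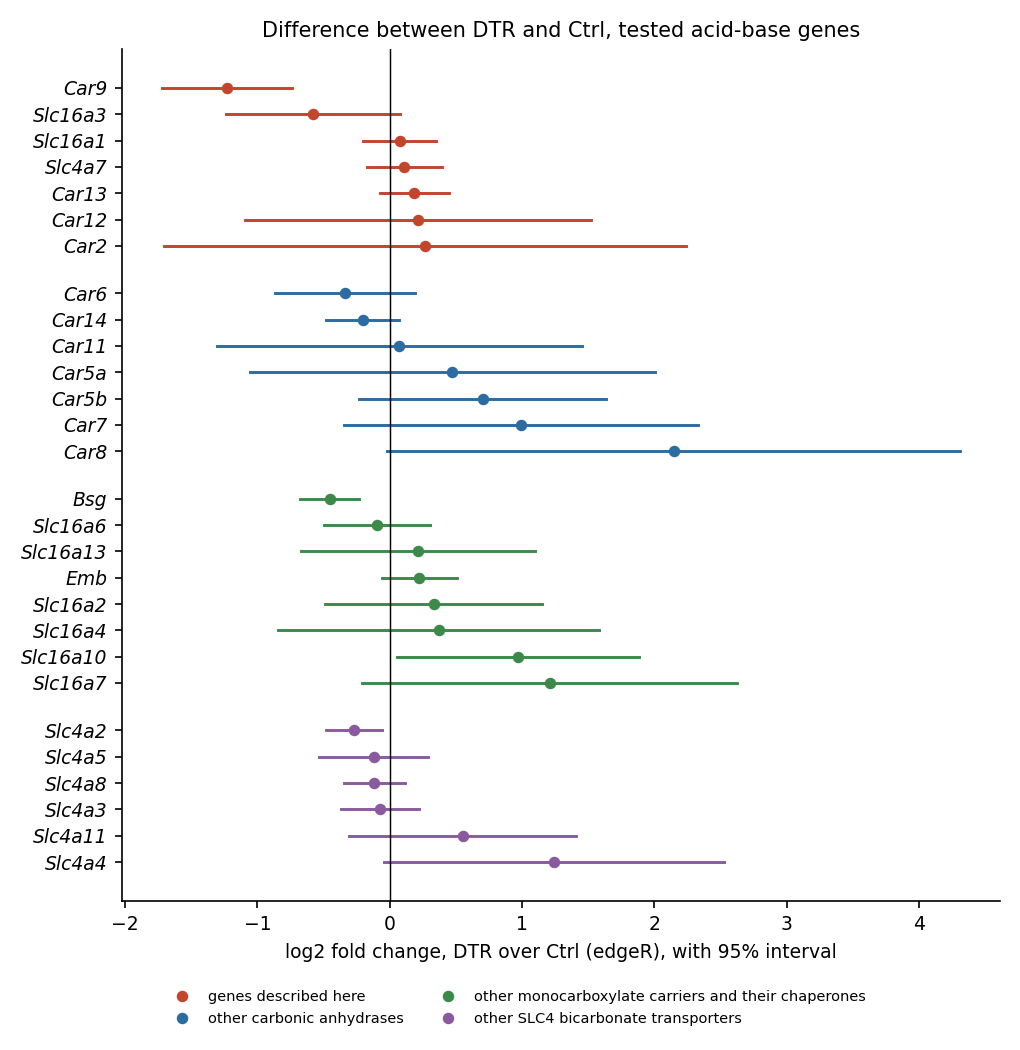
log2 fold change of DTR over Ctrl with 95% intervals from edgeR for the 7 tested genes of the set and for the tested genes of the 3 related families. The interval of Car9, -1.72 to -0.74, lies below 0, as do those of Bsg and Slc4a2, and that of Slc16a10 lies above 0.

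Other proton-handling genes are given by their lists, beside 7.92% of all genes tested with an unadjusted p under 0.05 in either direction, and 0 of them passed the adjusted threshold in edgeR. Of 9 SLC9 sodium-proton exchangers 6 were tested, with a median log2 fold change of 0.21 and none at an unadjusted p under 0.05. Slc9a5 had the highest value of the list, 0.49, which ran from 0.30 without DTR replicate 2 to 0.79 without DTR replicate 3. Of 25 subunits of the V-type proton ATPase, which acidifies lysosomes, 21 were tested, 14 with lower and 7 with higher values in DTR and a median of -0.07. The direction of 6 of the 21 turned when 1 library was left out, as did that of 2 of the 6 exchangers, 2 of the 8 tested carriers and chaperones of the monocarboxylate family and 1 of the 6 tested SLC4 carriers. At an unadjusted p under 0.05, Atp6v1f was lower (-0.22), and Atp6v1c2 (1.49) and Atp6ap2 (0.28) were higher, with an adjusted p of 0.602 to 0.604 in edgeR. Atp6v0d2 had the lowest value, -1.01, from 1.85 CPM ± 0.706 and 0.923 CPM ± 0.316. Atp6v0c, the proteolipid subunit, was listed at 0 in all libraries although its partner subunits were abundant, so its level is not given. Of 8 proton-sensing receptors and channels 3 were tested, all with lower values in DTR and none at an unadjusted p under 0.05, and the value nearest 0 was that of Gpr132 (-0.11), which turned without Ctrl replicate 2 (0.11).

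Across the 6 libraries, the log2 CPM of Slc16a3 had a Pearson correlation of 0.75 with that of Car9, Car2 of 0.21, Car12 of -0.02, Slc16a1 of -0.14, Slc4a7 of -0.27 and Car13 of -0.55. The genes most like Car9 among 8792 with a mean of at least 10 CPM were Twf1 (0.997), Myh9 (0.995), Numa1 (0.988), Bsg (0.988) and Cnn2 (0.985). These are descriptions over 6 points that share 2 groups and their scaling. With so many genes and so few points, high values are found by searching, and no test is attached to them.

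**Figure D5:**
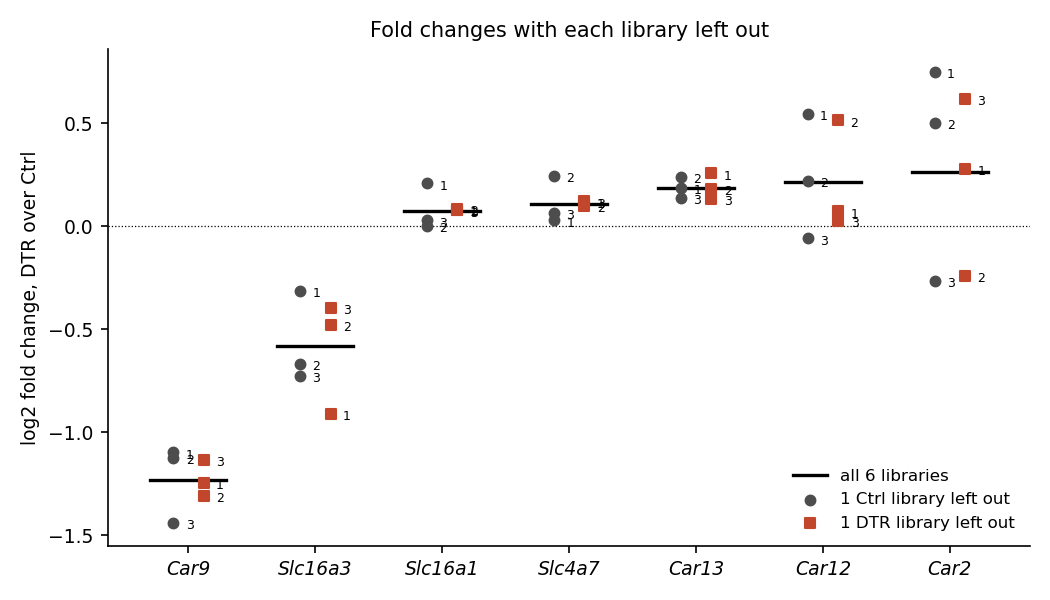
log2 fold change of DTR over Ctrl for the 7 tested genes with all libraries (bars) and with each Ctrl (grey circles) or DTR library (red squares) left out, numbered by the library left out. Car9 stays between -1.44 and -1.10, Slc16a3 between -0.91 and -0.31, and the points of Car2 and Car12 fall on both sides of 0.

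Leaving out single libraries gave the range of each difference. Car9 ran from -1.44 (without Ctrl replicate 3) to -1.10 (without Ctrl replicate 1), while Car13 ran from 0.13 to 0.26. Slc16a1 ran from 0.002 (without Ctrl replicate 2) to 0.21 (without Ctrl replicate 1), and Slc4a7 from 0.03 (without Ctrl replicate 1) to 0.24 (without Ctrl replicate 2). Car2 and Car12, with few counts, took both signs.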

How the data were processed

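The authors made stranded total RNA libraries (SMARTer Pico kit) from sorted cells, trimmed reads with cutadapt 3.4, mapped them to GRCm38 with STAR 2.7.3a and counted them per gene with featureCounts 2.0.1 using strand. The deposited raw counts are the values used here. Other columns hold the authors' scaled counts, fold changes, p-values and model diagnostics and were not used. Coordinates and exon lengths come from the GRCm38 gene annotation.

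Genes were filtered with filterByExpr (minimum count 10, minimum total 15), scaled with TMM and compared with edgeR 4.0.16 (quasi-likelihood, two-sided, R 4.3.3), with Benjamini-Hochberg adjustment over 15133 genes. Standard errors were obtained by dividing each log2 fold change by the root of its F statistic. The script was run on simulated data whose dispersion (spread between libraries) was below the common value of 0.0662 fitted here. That run checks the code and not the power to call genes in these libraries. The genes and lists were chosen with earlier results of these data known. Named genes are the set, Adam12, the lowest and highest of each list, up to 3 further genes per list with the smallest unadjusted p under 0.05, and the 5 most correlated with Car9, and some genes this rule names are not reported here. Further genes named for abundance, at 0, or as cell markers were picked after seeing values. Alternatives were DESeq2-type size factors, library size alone, a lower filter, DESeq2 1.42.0, the replicate number as a block, an offset on genomic span and each replicate left out.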

Additional observations from a re-analysis of the deposited data

How the results depend on the processing

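Over all genes, 0 passed the adjusted threshold in edgeR and 1199 had an unadjusted p under 0.05. DESeq2 called 28, and 31 with its filtering set to 0.05, which was added after seeing the data. Both DESeq2 settings called 1 gene of the set, Car9, at a log2 fold change of -1.22. The adjusted p of Car9 ran from 0.000243 (DESeq2, filtering at 0.05) to 0.852 (without Ctrl replicate 2). Leaving out single replicates gave 0 to 2 calls, the 2 being 4930509G22Rik and Gm8518, without Ctrl replicate 1. With the replicate block, 0 genes were called and Car9 was at -1.20. Deviations of same-numbered libraries correlated at 0.114, 0.132 and -0.0420, so the numbers were not taken to pair the libraries. Why the tools differed was not tested. The direction turned with the offset for genomic span for Slc4a7 (-0.0165). When 1 replicate was left out, Car2 ran from -0.26 to 0.75, Car12 from -0.0594 to 0.55, Gpr132 from -0.43 to 0.11 and Pdgfra from -0.0264 to 0.83. The median of the set ran from -0.06 to 0.22. Depth limits Car2, Car3, Car4 and Car12, which had at most 32 counts in a library.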
